A study of Caenorhabditis elegans with 2 samples.

Results

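The nuclear pore and nuclear transport genes of Caenorhabditis elegans were examined for promoter peaks of the NK-2 class homeodomain protein CEH-27 in ChIP-seq, which recovers DNA crosslinked to a protein. Members were the protein-coding genes whose symbols begin with npp-, imb-, ima-, ran-, xpo- or nxf- in the Ensembl annotation, 42 genes of 19973 on the nuclear chromosomes. They comprised 26 nucleoporin genes (npp-), 11 genes of transport receptors (imb-, ima-, xpo- and nxf-) and 5 genes of the Ran cycle (ran-). The worms formed a single group, of which biological replicates 1 and 4 were measured, so no conditions can be compared. The worms were whole young adults of strain OP139, with a labelled age of 73 hours and a label that also names starved L1 larvae after bleaching, with both sexes pooled. They carried the transgene wgIs139, in which ceh-27 is joined to TY1, EGFP and 3xFLAG tags and accompanied by unc-119(+), in an unc-119(ed3) background. Per the labels' description, the tagged protein was precipitated with an antibody against GFP, although their antibody field names ceh-27, so the data follow a tagged transgene product in a whole animal and do not separate tissues.

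The nuclear pore is a large channel through the nuclear envelope, built in many copies from nucleoporins. A scaffold of inner ring and Y complex nucleoporins holds a central channel lined with phenylalanine-glycine repeats. Filaments face the cytoplasm, a basket faces the nucleoplasm, and membrane nucleoporins anchor the whole. Importins and exportins carry proteins through this channel, and the small GTPase Ran, loaded with GTP in the nucleus and made to hydrolyse it in the cytoplasm, gives them direction. Bulk mRNA leaves by another receptor of the NXF family. Homeodomain proteins of the NK-2 class are known as developmental regulators, while pore and transport genes are used by nearly all cells.

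Of the 42 genes, 15 had a peak of the reproducible set in their promoter, namely 8 of 26 nucleoporin genes (30.8%), 6 of 11 receptor genes (54.5%) and 1 of 5 Ran cycle genes. The reproducible set is the authors' list of 2328 peaks that passed an irreproducible discovery rate threshold. Each member peak in it had the same signal and rank in the authors' pooled list, from rank 135 at imb-3 to 2135 at npp-1. Counts from the set and from the pooled list are therefore not separate evidence. Members outside the set had pooled promoter signals of at most 81.7, under the lowest signal in the set, 91.7. The summit of the peak had to lie in the gene's promoter window, taken as 1000 bp before and 200 bp after each annotated 5' end. The share was 35.7% for the 42 genes together, beside 8.47% for all protein-coding genes, 1691 of 19973. The 5 receptor genes without such a peak were ima-3, nxf-1, nxf-2, xpo-2 and xpo-3. The group sizes are small and no test of pore against receptors was made, so the shares are descriptions. For 7 of the 15 genes another protein-coding gene had a 5' end nearer to the summit, so that 8 of 42 genes were left when each summit was given to the nearest 5' end only, beside 1267 of all 19973 genes under the same rule. Among the 1164 strongest reproducible peaks, 7 of 26 nucleoporin genes and 3 of 11 receptor genes had a promoter summit, beside 980 of all 19973 genes.

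**Figure D1:**
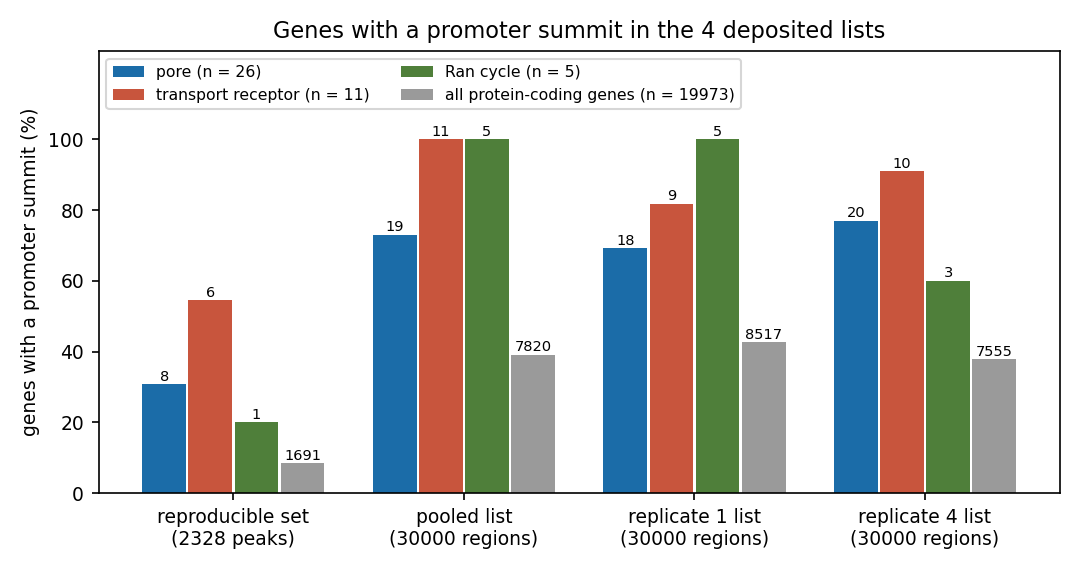
The bars give the percentage of genes with a promoter summit in each deposited list, for nucleoporin genes (blue), transport receptor genes (red), Ran cycle genes (green) and all protein-coding genes (grey), with the number of genes above each bar. In the reproducible set the bars stand at 30.8%, 54.5%, 20% and 8.47%, from 8, 6, 1 and 1691 genes.

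The DNA under 6 of the 15 peaks is shown, with all 3 classes among them, so that the summits can be compared base by base. Each line holds the summit and 50 bases on either side of it, on the plus strand of RefSeq's WBcel235 assembly. The peaks belonged to the promoters of npp-3 (chrII:11874847-11874947), npp-8 (chrIV:1595940-1596040), xpo-1 (chrV:7804619-7804719), ima-1 (chrV:11239331-11239431), ran-5 (chrII:6047785-6047885) and imb-2 (chrII:14365381-14365481). Capitals mark AAGTG, the core sequence known for NK-2 class homeodomains, or its reverse complement CACTT.
npp-3: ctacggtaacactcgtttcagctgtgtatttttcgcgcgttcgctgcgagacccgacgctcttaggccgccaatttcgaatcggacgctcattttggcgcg
npp-8: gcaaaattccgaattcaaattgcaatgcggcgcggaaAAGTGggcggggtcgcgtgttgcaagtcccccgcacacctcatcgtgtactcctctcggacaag
xpo-1: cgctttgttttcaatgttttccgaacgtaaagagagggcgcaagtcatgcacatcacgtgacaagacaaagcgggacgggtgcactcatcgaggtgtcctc
ima-1: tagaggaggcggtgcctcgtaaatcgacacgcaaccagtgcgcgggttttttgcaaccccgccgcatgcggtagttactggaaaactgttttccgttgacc
ran-5: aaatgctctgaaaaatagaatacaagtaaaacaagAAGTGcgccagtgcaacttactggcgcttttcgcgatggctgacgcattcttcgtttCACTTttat
imb-2: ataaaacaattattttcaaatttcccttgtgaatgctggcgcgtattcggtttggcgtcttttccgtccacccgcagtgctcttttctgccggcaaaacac
The core was present in the windows of npp-8 and ran-5, with 1 and 2 copies, and in none of the other 4. The G and C content was highest at npp-8 (56.4%), with 55.4% at both npp-3 and ima-1, and lowest at ran-5 (40.6%).

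Inner ring genes made up 3 of the 8 nucleoporin genes with a reproducible promoter peak, out of 4 in the annotation. The share of all protein-coding genes was 8.47%, and 4 genes are too few to compare parts of the pore. The inner ring is the part of the scaffold that bridges the membrane coat and the central channel. At npp-3, the counterpart of human NUP205, the peak had a signal of 320, the authors' own value for each peak on a scale that is not stated, and ranked 151 of 2328. Its summit was intergenic, 109 bp upstream of npp-3 and 251 bp from the 5' end of top-2, a topoisomerase II gene that points the other way. The replicates gave the region signals of 106.0 in replicate 1 (rank 200 of 30000 regions) and 207 in replicate 4 (rank 157). The signal scales of the replicate lists differ, with a highest value of 455 in replicate 1 and 847 in replicate 4, so that ranks are the fairer comparison, and by rank npp-3 was near the top of both.

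The other inner ring genes with a peak were npp-8 and npp-13. At npp-8, the counterpart of NUP155, the summit lay 166 bp upstream in intergenic sequence (IV, 1595928 to 1596064), with a signal of 215. Its signal was 74.8 in replicate 1 and 144 in replicate 4, at ranks 525 and 430. At npp-13, the counterpart of NUP93, the summit lay 248 bp upstream (I, 2096926 to 2097269), with a signal of 139.0. It ranked 811 in replicate 1 and 1676 in replicate 4, a lower place than npp-8 in both. No other gene's promoter window held the npp-8 or the npp-13 summit. The fourth inner ring gene, npp-19, the counterpart of NUP35, had a pooled signal of 81.7 at rank 2895, just under the lowest reproducible peak of any gene at 91.7. Its replicate ranks of 4422 and 4983 lay close together.

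The nuclear basket, the filaments on the cytoplasmic side, the membrane ring and the central channel each had 1 of 3 genes with a reproducible promoter peak. The Y complex had 1 of 8. The share of all protein-coding genes was 8.47%, and groups this small do not set the parts of the pore apart. At npp-7, the counterpart of the basket protein NUP153, the signal was 251 (I, 5691695 to 5691872), with ranks of 483 in replicate 1 and 296 in replicate 4. The summit lay 478 bp upstream of npp-7 and 283 bp from unc-40, a netrin receptor gene on the other strand. At npp-6, the counterpart of the Y complex member NUP160, the signal was 211 (I, 5176327 to 5176524), with ranks of 598 and 461. That summit lay 395 bp upstream of npp-6 but inside an intron of spd-5, a centrosome scaffold gene, 220 bp from one of its 5' ends. Both peaks therefore sat closer to a neighbour's 5' end than to the nucleoporin gene's own.

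At npp-14, the counterpart of the cytoplasmic filament protein NUP214, the signal was 169.9 (I, 9665122 to 9665265). The summit lay 281 bp upstream of npp-14 and 55 bp from cel-1, the gene of the mRNA capping enzyme. Its rank was 360 in replicate 1 against 1126 in replicate 4. At npp-12, which encodes the membrane nucleoporin gp210, the signal was 139.5 (I, 6446472 to 6446815), with ranks of 637 and 1512. Its summit was the farthest from its gene among the 15, at 660 bp upstream, and 179 bp from T23H2.3. The weakest of the 15 was npp-1, the counterpart of the central channel protein NUP54, with a signal of 96.5 (IV, 9858121 to 9858464) at rank 2135, 195 bp upstream. It ranked 1892 in replicate 1 and 2777 in replicate 4, so that only replicate 1 had it among its 2328 strongest regions.

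Of the Y complex, the outer scaffold coat of the pore, 1 of 8 genes (12.5%) had a reproducible promoter peak, a share near the 8.47% of all genes. Within it npp-5, npp-15 and npp-18, the counterparts of NUP107, NUP133 and SEH1, had no promoter summit in any of the 4 lists. The pooled list held summits at npp-2 (signal 58.9), npp-23 (58.3), npp-10 (44.4) and npp-20 (35.4). With npp-6, 5 of the 8 genes had a pooled promoter summit (62.5%), beside 39.2% of all protein-coding genes. Of all 18 nucleoporin genes outside the reproducible set, 11 had a pooled summit, with signals from 25.9 at npp-4 to 81.7 at npp-19. The signal next to that of npp-19 was 62.9 at npp-16. Counting those in the set, 19 of 26 nucleoporin genes had a pooled promoter summit (73.1%), beside the same 39.2%. The remaining ones were npp-5, npp-15, npp-18 and npp-26 with no summit anywhere, npp-9 and npp-24 with a summit in replicate 1 alone, and npp-22 with one in replicate 4 alone. A region missing from a capped list can still hold signal under its lowest value, so no summit is not a measurement of no binding.

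Among the receptors, imb-3 had the strongest promoter peak of all 42 genes. It encodes an importin of the beta family and had a signal of 327 (I, 315133 to 315342), rank 135 of 2328, with an intergenic summit 244 bp upstream and no other gene's promoter window over it. It ranked 103 in replicate 1 and 198 in replicate 4, with signals of 130.9 and 193, so both replicates placed it near the top. At imb-1, the gene of importin beta itself, the signal was 154 (I, 4926521 to 4926609), with ranks of 1047 and 855. That summit lay in a gap of 148 bp between imb-1 and mfsd-13.1, 102 bp upstream of imb-1 and 47 bp from mfsd-13.1. The transportin gene imb-2 had a weaker peak (signal 98.4; II, 14365259 to 14365602), 270 bp upstream, at ranks 2051 and 3075.

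The exportin gene xpo-1, whose product carries proteins with leucine-rich export signals, had a signal of 135.6 (V, 7804497 to 7804840). It ranked 2221 in replicate 1 against 984 in replicate 4, with signals of 38.8 and 97.4. The summit lay 395 bp upstream of xpo-1, 461 bp from uvs-1 and within the noncoding gene ZK742.8, so several annotated genes share the peak. Of the importin alpha genes, whose products link cargo to importin beta, ima-1 had a signal of 120.4 (V, 11239209 to 11239552) and ima-2 one of 112.4 (I, 6314742 to 6315085). Their summits lay 294 and 319 bp upstream, and that of ima-1 was 50 bp from dvc-1 on the other strand. The ranks of ima-1 were 1171 in replicate 1 and 1880 in replicate 4, and those of ima-2 were 1029 and 2514. The third importin alpha gene, ima-3, had a pooled signal of 47.2 and a summit in replicate 4 but not in replicate 1.

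The other receptor genes all had summits in the pooled list, at signals from 34.1 at nxf-2 to 57.2 at xpo-3. The mRNA export receptor gene nxf-1 stood apart between the replicates, with rank 1877 in replicate 1 and no promoter summit among the 30000 regions of replicate 4. Its pooled signal was 49.98. At xpo-2, the gene of the receptor that returns importin alpha to the cytoplasm, the pooled signal was 37.7, with ranks of 5198 and 20801 for its strongest summits in the replicates, which lay 173 and 762 bp upstream and so were different places. At xpo-3, the gene of the tRNA exporter, the ranks were 15630 and 5912, with both summits about the same distance upstream (265 and 253 bp).

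In the Ran cycle, ran-5, a gene of the Ran-binding protein 3 kind, had the reproducible promoter peak (signal 99.3; II, 6047663 to 6048006). Its summit lay 274 bp upstream of ran-5 and 32 bp from the 5' end of R12C12.6, within coding sequence of that gene. The ranks were 1991 in replicate 1 and 2478 in replicate 4. The gene of the GTPase itself, ran-1, had a promoter summit of pooled signal 71.1 at rank 3816, with rank 1621 in replicate 4, 456 bp upstream, against 7070 in replicate 1, 901 bp upstream. A reproducible peak (signal 99.9; III, 10746509 to 10746852) lay at the other end of ran-1, in its 3' untranslated sequence, 100 bp from the gene's end. That was the sole reproducible summit inside a member gene and outside that gene's promoter.

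The genes that charge and recycle Ran had weaker regions. The nuclear transport factor 2 gene ran-4 had a pooled signal of 70.5 and rank 9407 in replicate 1, with no promoter summit in replicate 4. At ran-3, the gene of the exchange factor, the pooled signal was 39.9, and at ran-2, the gene of the GTPase activating protein, it was 29.5. The annotation places ran-2 479 bp downstream of npp-15 on the same strand, and neither gene had a reproducible summit. The ran-2 summit in the pooled list lay inside the gene, 162 bp downstream of the nearest of its annotated 5' ends, which is not the outermost one.

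**Figure D2:**
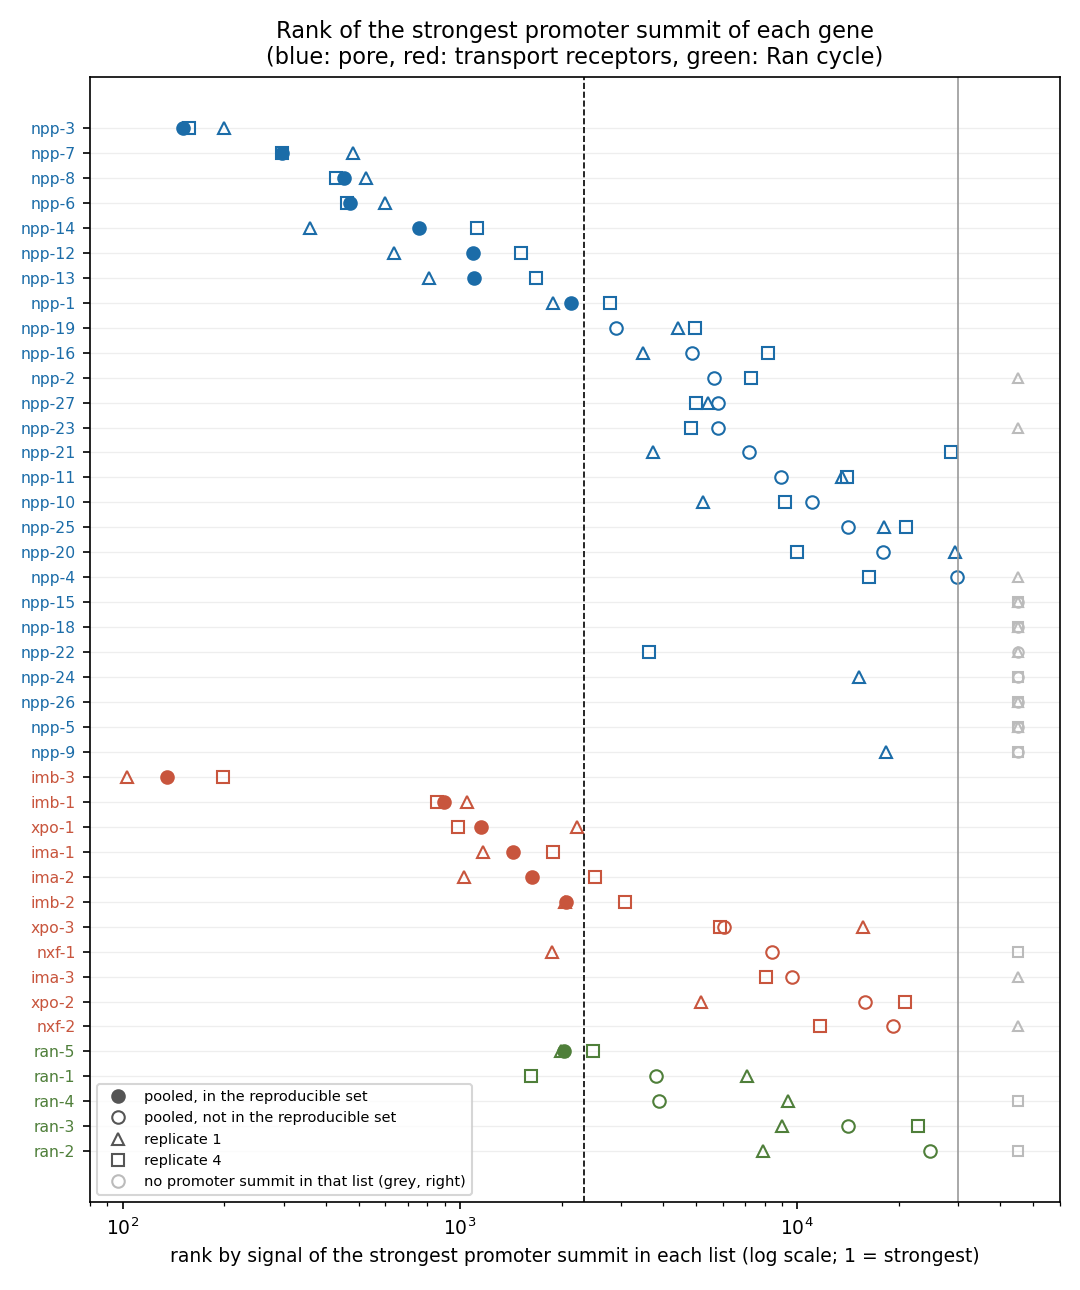
Each row is a gene and the x axis, on a log scale, gives the rank by signal of its strongest promoter summit in the pooled list (circles), replicate 1 (triangles) and replicate 4 (squares), with the dashed line at rank 2328 and the solid line at 30000. Filled circles mark the 15 genes in the reproducible set, from imb-3 at rank 135 to npp-1 at 2135, and grey symbols at the right mark lists with no promoter summit.

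All 15 member peaks were matched in both replicates by a summit within 100 bp. The largest distance was 44 bp in replicate 1 and 41 bp in replicate 4. Of all 1317 reproducible promoter peaks, 1246 were matched in the same way. The set was built from these replicates, so a match is partly given by its construction. Among the 2328 strongest regions, replicate 1 placed a summit in 16 of the 42 promoters, beside 8.47% of all genes, and replicate 4 in 12, beside 8.08%. Replicate 1 held all 15 genes and also nxf-1. Replicate 4 held 11 of the 15 and also ran-1, and missed ima-2, imb-2, npp-1 and ran-5, whose ranks there ran from 2478 to 3075.

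The ranking within the replicates differed by gene. The peak ranked higher in replicate 1 for 9 genes and in replicate 4 for 6, among them npp-3, npp-6, npp-7, npp-8, imb-1 and xpo-1. The widest ratios of ranks in favour of replicate 1 were at npp-14 (360 against 1126), ima-2 (1029 against 2514) and npp-12 (637 against 1512). In favour of replicate 4 the widest was at xpo-1 (2221 against 984). With 2 replicates no test of these differences is possible.

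**Figure D3:**
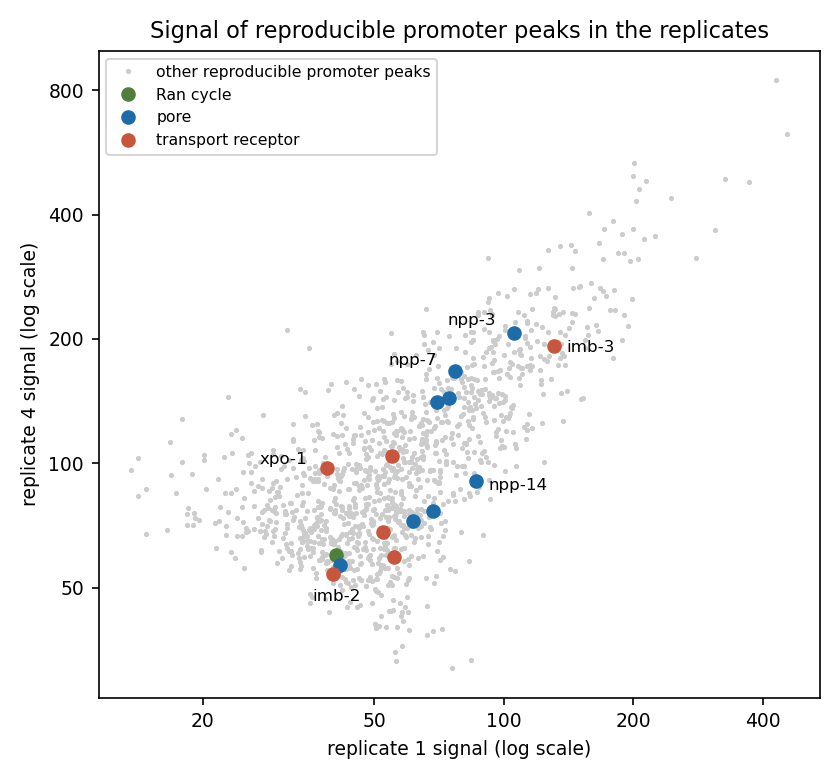
The axes give, on log scales, the signal of each reproducible promoter peak in replicate 1 (x) and replicate 4 (y) for peaks matched within 100 bp. The 15 member peaks (blue pore, red receptors, green Ran cycle) lie within the cloud of the other promoter peaks (grey), with imb-3 at 130.9 and 193 and imb-2 at 40.2 and 54.0.

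The pooled and replicate lists each hold 30000 regions and reach far below the reproducible set, down to a −log10 q of 0.0632 at npp-20 in replicate 1. A promoter summit in the pooled list was present at 35 of the 42 genes (83.3%), beside 39.2% of all genes. These 35 include the members in the reproducible set, whose peaks have the same signal in both lists. In the replicate 1 list there were 32, beside 42.6%, and in the replicate 4 list 33, beside 37.8%. The receptor genes had 11 of 11 in the pooled list, 9 in replicate 1 and 10 in replicate 4. For the nucleoporin genes the numbers were 19, 18 and 20 of 26, and for the Ran cycle genes 5, 5 and 3 of 5. All 3 long lists had a summit for 27 of the 42 genes (64.3%), beside 24.7% of all genes. Of the 27 genes outside the reproducible set, 12 had a summit in all 3 long lists, 8 in a pair of them, 3 in one and 4 in none.

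Each of the 15 summits lay upstream of its gene, between 102 bp at imb-1 and 660 bp at npp-12, and 14 of them lay from 100 to 500 bp upstream. Among all 1691 genes with a reproducible promoter peak, 94.9% had the summit upstream and 57.9% had it in the range from 100 to 500 bp. The medians were 274 bp upstream for the members and 252 bp for all such genes. The median signal was 139.5 for the 15 genes and 147.0 for the 1691, and 10 of the 15 (66.7%) had a peak among the 1164 strongest of the set, beside 58.0%. The member signals, from 96.5 to 327, lay inside the range of all promoter peaks, from 91.7 to 1263.

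**Figure D4:**
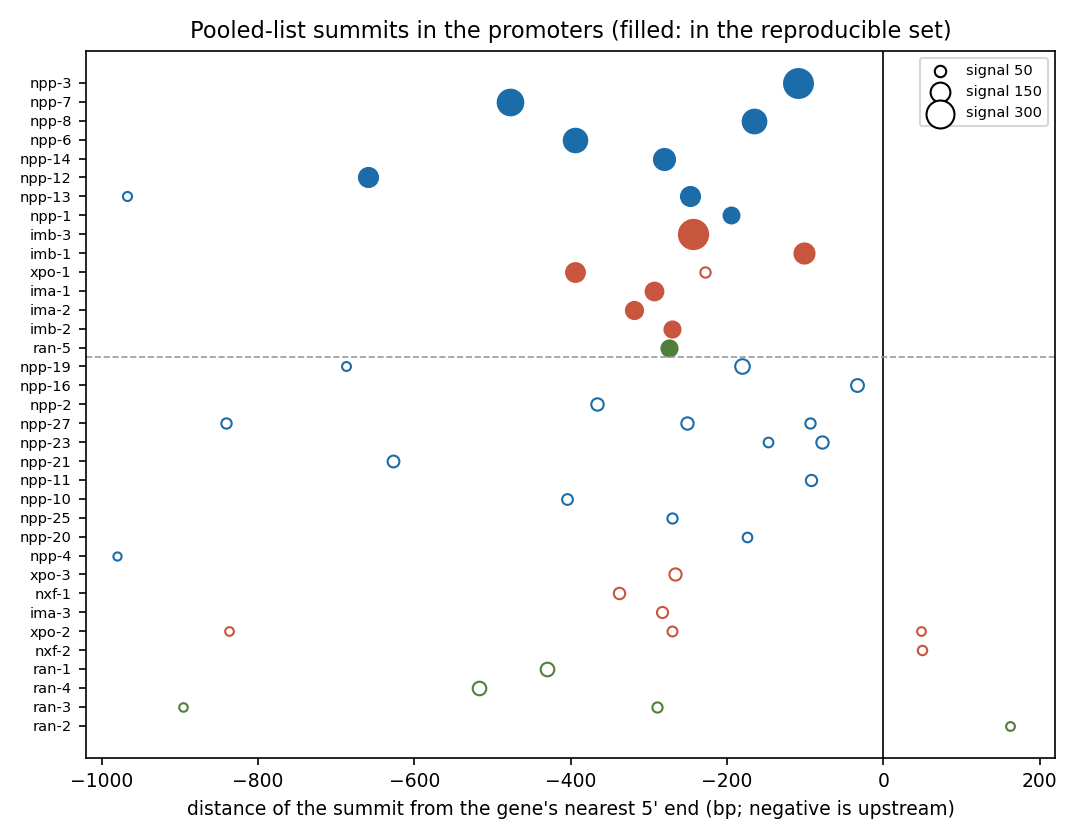
Circles mark every pooled-list promoter summit of each gene by its distance from the gene's nearest 5' end (x axis, bp, negative upstream), with area in proportion to signal and filled circles in the reproducible set. The filled circles all lie upstream, between 102 and 660 bp.

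Of the 15 peaks, 9 (60.0%) were in the promoter windows of 2 or more genes, beside 30.8% of all promoter peaks, and 13 (86.7%) were intergenic, beside 76.4%. The shares for shared windows are not like for like. The 15 were reached through genes, while the 30.8% counts each peak once, so shared peaks had more ways to be included. Whether members share peaks more often was not tested. The neighbours were top-2, unc-40, spd-5, cel-1, T23H2.3, mfsd-13.1, uvs-1, dvc-1 and R12C12.6. A head to head neighbour within 1000 bp was annotated for 22 of the 42 genes, and 9 of these 22 had a reproducible peak (40.9%), beside 19.2% of the 3503 protein-coding genes with that arrangement. Of the 15 genes with neither this arrangement nor a close neighbour upstream on the same strand, 5 had a peak (33.3%), beside 6.28% of 12853. A neighbour upstream on the same strand within 500 bp was annotated for 5 genes, and 1 had a peak, beside 5.81% of 3612 such genes. It was npp-1, with a gap of 420 bp. No operon annotation was used.

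Of 13 members on chromosome I, 8 had a reproducible peak, beside 10.6% of all genes there. Of the 29 members elsewhere, all on chromosomes II to V, 7 had one (24.1%). The shares of all genes were 7.60% on II, 11.9% on III, 8.05% on IV and 5.89% on V. None of 8 members on chromosome III had a reproducible promoter peak, beside 11.9% of all genes there, and no member lies on X. With 8 genes, the members on III are not set apart from that share.

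AAGTG was found on either strand within 50 bp of 7 of the 15 summits (46.7%), beside 28.2% of all reproducible promoter summits and 27.1% of all reproducible summits. Besides npp-8 and ran-5, whose sequences are printed above, it was found at imb-3 and npp-14 with 2 copies each, and at npp-6, npp-12 and ima-2 with 1. Among the 3 strongest peaks, imb-3 had the core, while npp-3 and npp-7 did not. Within 100 bp the number was 8 of 15 (53.3%), beside 43.7% of promoter summits. The 15 peaks are few, and the difference from all promoter summits was not tested. The bases within 50 bp of the summits held from 37.6% G and C at imb-1 to 56.4% at npp-8, with a median of 48.5%, beside 49.5% for all promoter peaks. A match of these letters is a description and not a binding site.

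Lists of other nuclear envelope and mRNA export genes gave a further view of the pathway. Of 22 that matched by symbol, 6 had a reproducible promoter peak, 2 of 12 in the envelope list and 4 of 10 in the export list, beside 8.47% of all genes. With lists this short, the 2 envelope genes are not set apart from that share. In the envelope list these were lem-2, a LEM domain protein gene (signal 187, 168 bp upstream), and unc-84, a SUN domain gene (98.8, 686 bp upstream). In the export list they were thoc-5 (signal 245, 52 bp upstream) and thoc-7 (156, 785 bp upstream) of the THO complex. The others there were the RNA helicase gene hel-1 (207, 252 bp upstream) and the export adaptor gene aly-2 (107, 322 bp upstream). The windows of thoc-7 and rpl-29 shared a peak, as did those of aly-2, daf-10 and rpb-12, and hel-1 shared its peak with C26D10.4. No promoter summit in any list was found at mel-28, the gene of a pore assembly factor, sun-1, ooc-5, aly-1 or thoc-1. The partner gene of nxf-1, nxt-1, had a pooled signal of 79.3 at rank 3053.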

How the data were processed

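The measurement was ChIP-seq of tagged CEH-27 in whole young adults, with 2 biological replicates of 1 group. Per the labels, the authors deposited on build ce11 a region list per replicate, a pooled list and a reproducible set filtered by irreproducible discovery rate. The aligner, caller and threshold were not given in the sources used here. Each deposited region has a signal, on an unstated scale, and a −log10 q value. The lists hold no read counts, so depth is unknown, and a control named beside the files was not analysed here. The −log10 q values were at their ceiling of 3.46 for 1431 of the 2328 peaks, so peaks were ranked by signal.

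Summits were placed in promoters around every annotated 5' end of each protein-coding gene (Ensembl release 115, WBcel235, the assembly of ce11). Ranks are by signal within a list. Replicate summits were matched within 100 bp. Placement was tested on simulated positions. Members, classes and lists were chosen with earlier results of these data known. Genes were named by rule, namely all members with a reproducible promoter peak, the strongest others in each class, those with no summit, and listed pathway genes with a peak, while further members, neighbours and nxt-1 were added after their values were seen. Of the pathway genes, eny-2 had no match by symbol. No test was made, since the members are not replicates and there is no second group. Alternatives covered promoter windows of 500 and 2000 bp, whole intervals, single replicates, the 1164 strongest peaks, outermost or nearest 5' ends, a 50% reciprocal overlap and a wider motif window. Neighbour arrangements and chromosomes were compared after the data were seen. Python 3.11.15, numpy 2.4.6, pandas 2.3.3 and matplotlib 3.10.9 were used.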

Additional observations from a re-analysis of the deposited data

How the results depend on the processing

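The main count was 15 genes with a reproducible promoter peak, beside 1691 of all genes. It was 14 with 500 bp upstream, where npp-12 was lost, beside 1327 of all genes. With 2000 bp it was 16, where npp-20 was gained, beside 2238. With whole intervals or outermost 5' ends it stayed at 15, beside 1820 and 1541 of all genes. Giving each summit to its nearest 5' end left 8 of the 42 genes, 4 nucleoporin genes and 0 Ran cycle genes, while the 4 receptor genes and the 1267 of all genes left were within 1.5 times of their main counts. The 1164 strongest peaks of the set left 10 of the 42 genes, beside 980 of all genes. These were 7 nucleoporin genes, 3 receptor genes and 0 Ran cycle genes. These peaks are a part of the set, so no count could rise. From the strongest regions of one replicate alone, the counts ran from 12 to 16 for all 42 genes, 7 to 8 for nucleoporin genes, 4 to 7 for receptor genes and 1613 to 1691 for all genes, with 1 Ran cycle gene in both. With a 50% reciprocal overlap in place of the summit distance, 11 of the 15 peaks were matched in both replicates. Those not matched were npp-6, npp-8, npp-14 and imb-1, with peaks from 89 to 198 bp wide. Their replicate summits lay within 41 bp of the summit in the set. The share of all promoter peaks under this rule is not given here. No paired analysis was possible because there was 1 group. The lists give no depth, so a gene outside the reproducible set can still hold weak binding. A gene with no summit in a list cannot be told from one with weak binding.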
